A study of Mus musculus with 3 samples.

Results

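Transcripts of the Notch signalling pathway were compared between metanephric mesenchyme of 10.5 days post coitum (dpc) and metanephroi of 11.5 dpc. The genes were the receptors Notch1, Notch2 and Notch3, the ligands Dll1 and Jag1, the target genes Hes1, Hes5, Hey1 and Hey2, and Lfng, which modifies the receptors. They were taken from the deposited table of ratios through probes that the platform annotation gives 1 gene symbol and that have a value on all 3 arrays. Of the 10 genes, 8 met this, among 14047 genes in all. Jag1 and Hes5 had no value on array 2, and their values on the other arrays are given without entering the tests on 3 arrays. Each of the 10 genes was read by 1 probe, so no gene had another probe to set beside it.

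Every array held both tissues, as amplified RNA from CD1 mouse embryos of pooled sexes, with the mesenchyme in channel 1 and the metanephroi in channel 2. The tissue was microdissected, the labels name no genotype or treatment beside the CD1 strain, and no reference RNA entered the design. The dyes were assigned as red/green on arrays 1 and 2, and as green/red on array 3. The labels do not name the dissections behind each array, so p-values cover only the spread among 3 arrays, and that spread may be technical. The values are log2 ratios of the channels, so that a ratio of 1 is a difference of 2-fold. The labels do not name the numerator, and a positive or negative ratio is therefore not assigned to a tissue. As points of reference, Wt1, a transcription factor of the metanephric mesenchyme, had 1.78, 1.70 and 1.76 on arrays 1 to 3, and the stromal factor gene Foxd1 had 1.74, 1.55 and 1.39. Both lay on the positive side on every array. The muscle actin gene Acta1 had -4.50, -6.02 and -4.37 and lay on the negative side on every array. In whole tissue, fewer cells of a type and less RNA per cell cannot be told apart.

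Notch receptors are cell surface proteins that are cut when a ligand of the Delta or Jagged family on a neighbouring cell binds them. The freed intracellular part enters the nucleus, joins the DNA binding protein Rbpj and turns on target genes, chief among them the Hes and Hey genes, which encode transcriptional repressors. Fringe enzymes such as Lfng add sugars to the receptors and change which ligands they respond to. In the kidney the pathway is known for patterning the early nephron, where it favours the proximal segments, and outside the kidney for segmenting the somites and for keeping neural progenitors from differentiating.

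Across all genes, limma called 0 of 14047 at an adjusted p under 0.05, and 2750 had an unadjusted p under 0.05, which is 19.6% of those tested. Without array 1 there were 1156 such genes and without array 2 there were 1453. The smallest adjusted p of any gene was 0.149. An exact sign-flip test over 3 arrays cannot give a p below 0.25, so the moderated intervals of limma, at 95%, are given with each mean. The Spearman correlation of the ratios across 19660 probes, which are not independent replicates, was 0.466 for arrays 1 and 2. Array 3 had lower correlations, of 0.211 with array 1 and 0.171 with array 2. The Pearson correlation was 0.324 for arrays 1 and 2, 0.052 for arrays 1 and 3 and 0.015 for arrays 2 and 3. Array 3 was used as deposited because both of its Spearman correlations were above 0, and values with its sign turned are given for some genes. Shifts were counted over 67 of the genes named here, Neurog2 not among them. Turning array 3 changed the sign of 10 means and brought 38 others nearer to 0 by a factor of more than 1.5. Examples of the latter were Aph1a at -0.07, Hes7 at -0.10, Cldn5 at -0.14 and Dcx at 0.28. It moved 5 means away from 0 by more than that factor. Many of these genes were named for a small p by limma with array 3 as deposited, which favours that orientation. The counts therefore do not speak for all genes, over which these shifts were not counted.

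The largest ratio among the Notch genes was that of Hes5, a target gene of neural progenitors, on the negative side. Hey1 was the only one of the 8 genes on 3 arrays with an unadjusted p under 0.05, on the positive side, while the receptors and Hes1 lay close to 0. Dll1, Lfng, Hey2 and Notch2 were negative on arrays 1 and 2 and positive on array 3. By limma 0 of the 8 genes passed adjustment over all genes, and 1 of 8 had an unadjusted p under 0.05, a share of 12.5% beside the background of 19.6%. Of the 8 genes 2 had one sign on all 3 arrays, Hes1 and Hey1, which is 25.0% beside 45.5% of all genes. None of the 8 had a mean ratio of at least 1 in size, which 8.06% of all genes reached.

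**Figure D1:**
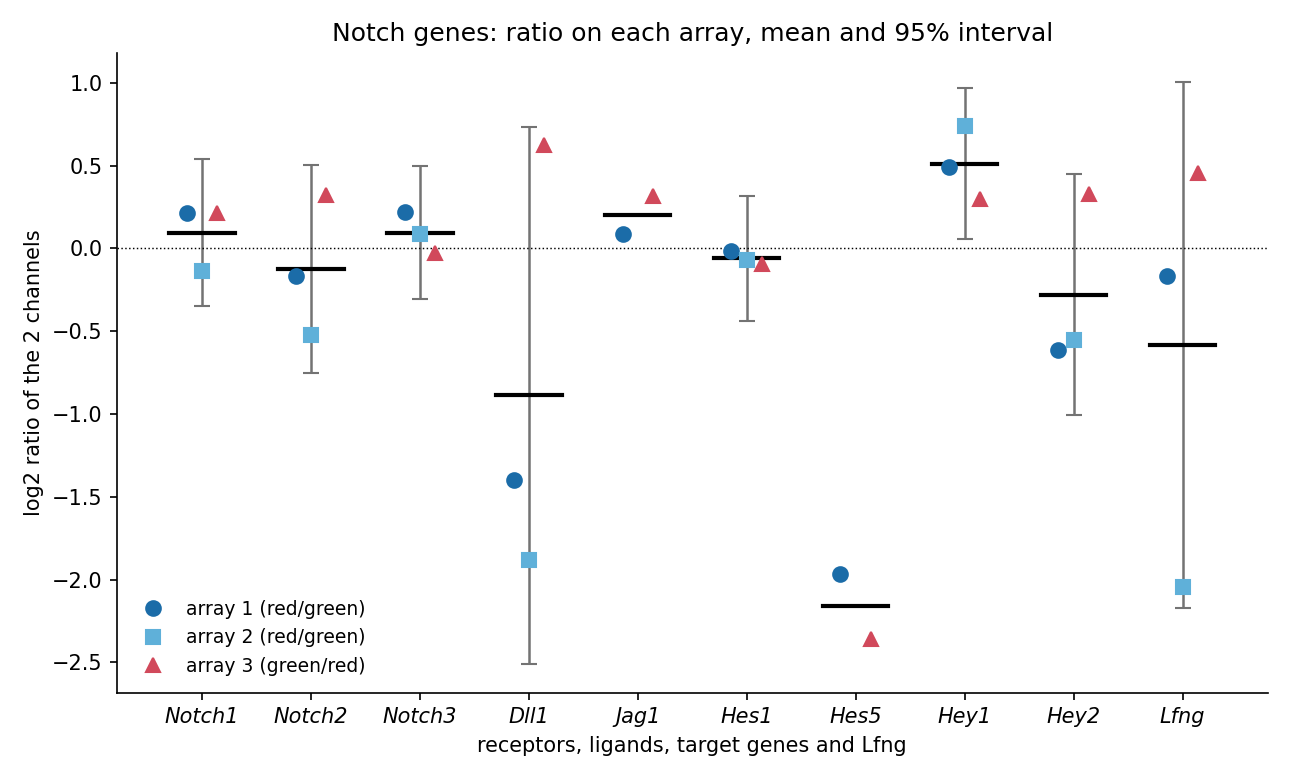
Log2 ratio of the 2 channels (vertical axis) for each Notch gene (horizontal axis), with a point for each array, a black bar at the mean and a grey line for the 95% interval of limma where all 3 arrays had a value. Hes5 lies at -1.97 and -2.36, Hey1 is above 0 on every array, and Dll1, Lfng, Hey2 and Notch2 have array 3 above 0 and the other arrays below it.

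Among the receptors, Notch1 had ratios of 0.21 on array 1, -0.14 on array 2 and 0.21 on array 3. Its mean was 0.10 ± 0.20 (SD, n = 3), with an interval from -0.35 to 0.54, and array 2 was on the other side of 0. Notch2, the receptor known to act in nephron segmentation, had -0.17, -0.52 and 0.32. Its mean was -0.12 ± 0.43, with an interval from -0.75 to 0.51, and array 3 was the one above 0. Notch3, a receptor of vascular smooth muscle and pericytes, had 0.22, 0.09 and -0.03. Its mean was 0.09 ± 0.12, with an interval from -0.31 to 0.50. The adjusted p by limma was 0.764 for Notch1, 0.787 for Notch2 and 0.741 for Notch3. All 3 intervals included 0, and none reached a ratio of 1 in size, so a 2-fold difference lay outside each of them. For Notch2 this did not hold in every fit, since its interval was -1.18 to 0.94 without variance moderation and -1.17 to 0.97 without array 1. With the sign of array 3 turned, the mean of Notch1 was -0.05 and that of Notch2 was -0.34.

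Of the ligands, Dll1 had -1.40 on array 1, -1.88 on array 2 and 0.63 on array 3. Arrays 1 and 2 were both far below 0 and array 3 was above it, and 10.2% of all genes had these signs. The mean was -0.89 ± 1.33 (SD, n = 3), and the interval of -2.51 to 0.74 included 0, with an adjusted p of 0.459 by limma. The SD of Dll1 was larger than that of 92.1% of all genes. Jag1, a ligand expressed in the developing nephron and in vessels, had 0.09 on array 1 and 0.31 on array 3, with a mean of 0.20 ± 0.16 (SD, n = 2). Both of its ratios were small and on the positive side.

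Lfng, the Fringe gene, had -0.16 on array 1, -2.05 on array 2 and 0.46 on array 3. The large negative value came from array 2, and arrays 1 and 2, of like dye order, were 1.88 apart. The mean was -0.58 ± 1.30 (SD, n = 3) with an interval from -2.17 to 1.00 and an adjusted p of 0.604 by limma. Without array 2 the mean was 0.15, on the other side of 0.

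The target genes differed among themselves. Hes1, a repressor expressed in many tissues, had -0.02 on array 1, -0.07 on array 2 and -0.10 on array 3. These were the 3 closest ratios of any of the 8 genes, and the SD was lower in only 1.35% of all genes. The mean was -0.06 ± 0.04 (SD, n = 3), and the interval of -0.44 to 0.32 lay within a difference of 2-fold on either side. The adjusted p was 0.831 by limma.

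Hey1, a repressor known from vessels, heart and other tissues, had 0.49 on array 1, 0.74 on array 2 and 0.30 on array 3. All 3 arrays were above 0. The mean was 0.51 ± 0.22 (SD, n = 3), a 1.43-fold difference, with an interval from 0.05 to 0.97. It had an unadjusted p of 0.0362 and an adjusted p of 0.225 by limma. The unadjusted p by limma rose above 0.05 without array 1, at 0.146, and without array 2, at 0.148. With the sign of array 3 turned the mean was 0.31 with an adjusted p of 0.944 by limma.

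Hey2, a related repressor of the arterial and cardiac lineages, had -0.61 on array 1, -0.55 on array 2 and 0.33 on array 3. Arrays 1 and 2 were within 0.06 of each other and array 3 was on the other side of 0. The mean was -0.28 ± 0.53 (SD, n = 3) with an interval from -1.01 to 0.45 and an adjusted p of 0.587 by limma.

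Hes5 had -1.97 on array 1 and -2.36 on array 3, and no value on array 2. These arrays had opposite dye orders and gave ratios on the same side, with a mean of -2.16 ± 0.28 (SD, n = 2), a 4.48-fold difference. Where genes with values on at least 2 arrays were fitted together, 14891 in all, Hes5 had an interval from -2.93 to -1.40 and an adjusted p of 0.184 by limma. In that fit 84 of the 844 genes on 2 arrays had an unadjusted p under 0.05, which is 9.95%, and Hes5 was among them. Of these 844 genes 17, Hes5 included, had a mean at or below its value. Its mean was 0.20 with the sign of array 3 turned. The neural progenitor marker Sox2, which also had no value on array 2, had -3.16 on array 1 and -4.11 on array 3, and its mean was 0.48 with the sign of array 3 turned. Other genes of the same list lay on both sides. Means were 0.40 ± 0.53 for Sox1, 0.19 ± 0.52 for Pax6 and 0.08 ± 0.07 for Nes (SD, n = 3). Neurog2 had -0.20, -0.38 and -0.64, with a mean of -0.41 ± 0.22. Sox1 was below 0 on array 3, at -0.05, and Pax6 on array 2, at -0.22. A value on array 2 was missing for 5.09% of the genes with values on arrays 1 and 3.

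Within each array the ratio of Hes1 was above that of Hes5, by 1.95 on array 1 and 2.26 on array 3. Hey1 was above Hes1 on all 3 arrays, by 0.51, 0.81 and 0.40, with a mean difference of 0.57 ± 0.21 (SD, n = 3). Hey1 was above Hey2 by 1.11 on array 1 and 1.30 on array 2 but below it by 0.03 on array 3.

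Promoter sequences are shown for the genes of the Hes, Hey and Fringe families in which the core of the Rbpj binding motif was found, since these are genes through which Notch activity is usually read. The motif searched was GTGGGAA on both strands, in the 250 bases before the transcription start. Sequences are from RefSeq, build GRCm38.p6, and the windows used here matched 8 of the 10 genes. Hes1 and Hey1 were not analysed here for the motif. The motif was found in 3 of these 8 genes, Hes5, Hey2 and Lfng, and in 4 of 60 other pathway genes that could be matched, among them Hes7. It occurs in 5.42% of all 32851 promoter windows of that length. Capitals mark the motif, read as GTGGGAA on the strand of the gene or as TTCCCAC where it lies on the opposite strand.
Hes5 chr4:154960673-154960922 (plus strand): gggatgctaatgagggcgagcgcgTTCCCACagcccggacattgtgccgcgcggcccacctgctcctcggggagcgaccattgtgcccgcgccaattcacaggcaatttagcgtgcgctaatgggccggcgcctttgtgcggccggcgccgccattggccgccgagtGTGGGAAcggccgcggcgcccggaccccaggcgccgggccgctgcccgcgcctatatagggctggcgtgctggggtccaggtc
Hey2 chr10:30842784-30843033 (minus strand): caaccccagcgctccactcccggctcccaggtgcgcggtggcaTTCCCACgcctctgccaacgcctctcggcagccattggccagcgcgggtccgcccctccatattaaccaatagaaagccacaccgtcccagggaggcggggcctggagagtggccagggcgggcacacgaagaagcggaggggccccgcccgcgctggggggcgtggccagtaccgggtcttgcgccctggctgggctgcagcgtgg
Lfng chr5:140607091-140607340 (plus strand): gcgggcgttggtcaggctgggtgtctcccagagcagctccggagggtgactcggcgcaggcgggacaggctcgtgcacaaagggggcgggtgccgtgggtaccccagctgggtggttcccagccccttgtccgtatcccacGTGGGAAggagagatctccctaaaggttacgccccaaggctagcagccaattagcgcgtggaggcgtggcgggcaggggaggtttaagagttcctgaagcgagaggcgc
Hes7 chr11:69120203-69120452 (plus strand): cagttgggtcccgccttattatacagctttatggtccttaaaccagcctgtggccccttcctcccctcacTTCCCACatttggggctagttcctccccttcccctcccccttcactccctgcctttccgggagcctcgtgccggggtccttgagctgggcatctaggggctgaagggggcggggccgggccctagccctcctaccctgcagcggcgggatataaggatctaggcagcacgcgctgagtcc
Hes5 had 2 matches, which start 226 and 83 bases before the transcription start, and 0.161% of all windows had at least 2. The single match started 207 bases before the start in Hey2, 109 in Lfng and 180 in Hes7. A match is a description of the sequence. These genes did not share 1 pattern of ratios, since Hes5 and Hes7 were negative on every array that had a value and Hey2 and Lfng had array 3 on the positive side. No match was found in the windows of Notch1, Notch2, Notch3, Dll1 and Jag1.

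Ordered by mean ratio, the 8 genes ran from Hey1 at 0.51 through Notch1, Notch3, Hes1, Notch2, Hey2 and Lfng to Dll1 at -0.89. Most neighbours in this order did not differ beyond their spread over the arrays. Notch1 and Notch3 differed by 0.001 ± 0.23 (SD, n = 3), Hes1 and Notch2 by 0.06 ± 0.45, and Lfng and Dll1 by 0.30 ± 0.81. The difference had one sign on all 3 arrays for Hey1 over Notch1, at 0.42 ± 0.41, and for Notch3 over Hes1, at 0.15 ± 0.08.

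Of the 8 genes 5 had array 3 on the other side of 0 from arrays 1 and 2, namely Notch2, Notch3, Dll1, Hey2 and Lfng, beside 25.6% of all genes. In 4 of them, all but Notch3, arrays 1 and 2 were negative and array 3 positive, a pattern of 10.2% of all genes. The mean of arrays 1 and 2 was lower than array 3 by 2.27 for Dll1, by 1.56 for Lfng, by 0.91 for Hey2 and by 0.67 for Notch2. The size of this gap was larger than in 95.4% of all genes for Dll1 and 90.3% for Lfng. Array 3 is also the array with the other dye order, so the array and the dye order cannot be told apart.

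The distance of these genes from 0 moved with the arrays used and with the sign of array 3. On arrays 1 and 2 alone Dll1 had a mean of -1.64 with an interval from -2.36 to -0.93, and Hey2 had -0.58 with an interval from -1.09 to -0.08. Their adjusted p was 0.224 and 0.227 by limma. Without array 2 the mean was -0.39 for Dll1 and -0.14 for Hey2, and without array 1 Hey2 had -0.11. In the fit of arrays 1 and 2 3 of the 8 genes, Dll1, Hey1 and Hey2, had an unadjusted p under 0.05, beside 21.0% of all genes. With the sign of array 3 turned Dll1 had -1.30, with an interval from -2.16 to -0.45 and an adjusted p of 0.783 by limma. In that fit 5.55% of all genes and 1 of the 8, Dll1, had an unadjusted p under 0.05, and Lfng had -0.89 with an interval that included 0. With a term for the dye in the fit, the mean was -0.51 for Dll1, -0.32 for Lfng and 0.46 for Hey1, and all 3 intervals included 0.

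**Figure D2:**
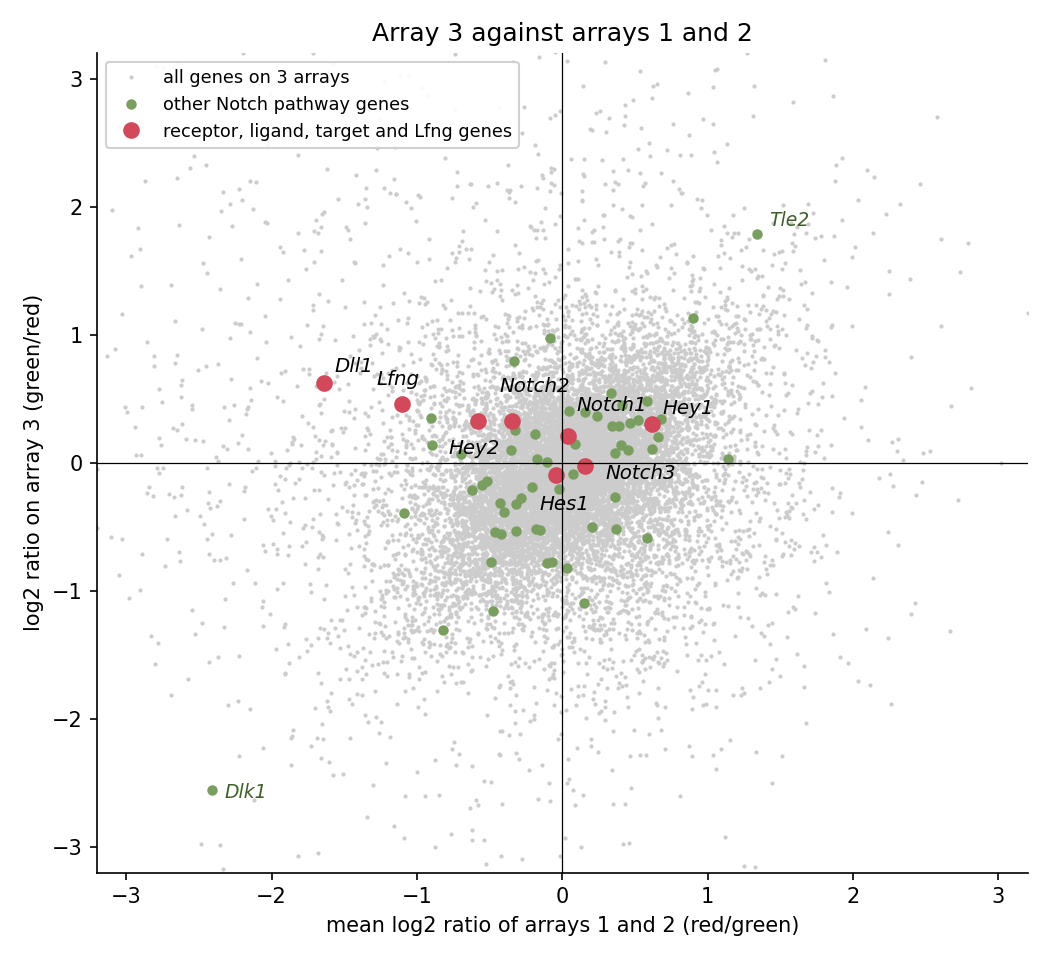
Log2 ratio on array 3 (vertical axis) against the mean log2 ratio of arrays 1 and 2 (horizontal axis) for all genes with 3 values (grey), other Notch pathway genes (green) and the 8 Notch genes (red), where 217 genes fall outside the axes. Dll1, Lfng, Hey2 and Notch2 lie at the upper left, Hey1 at the upper right, and Dlk1 far in the lower left.

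**Figure D3:**
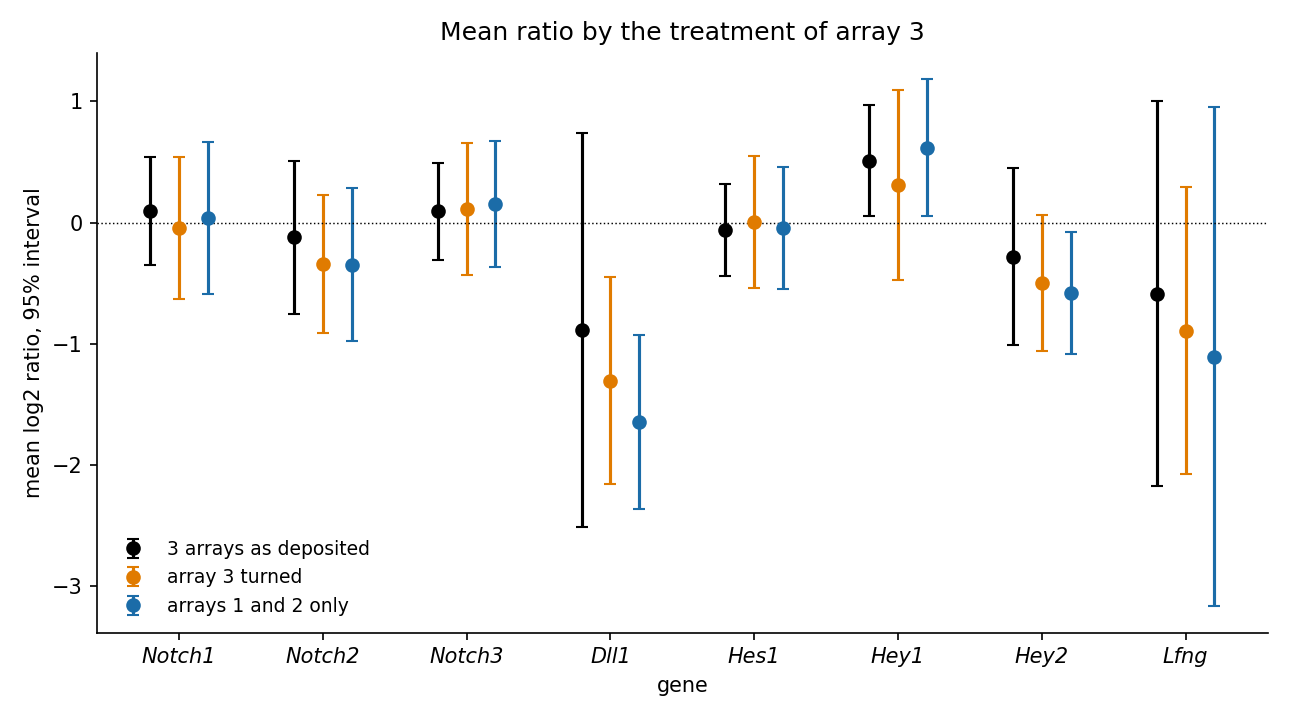
Mean log2 ratio (vertical axis) with its 95% interval from limma for the 8 Notch genes (horizontal axis), with 3 arrays as deposited (black), with the sign of array 3 turned (orange) and with arrays 1 and 2 alone (blue). Dll1 moves from -0.89 to -1.30 and -1.64, while Notch3 and Hes1 stay near 0 in all 3 fits.

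By the distance over the 3 array ratios, the genes closest to Hey1 were Dhdh, a dehydrogenase gene, with 0.48, 0.77 and 0.30, the noncoding Snhg6 with 0.46, 0.77 and 0.32, and Dnajc24 with 0.49, 0.74 and 0.35. The gene closest to Dll1 was the hair keratin associated gene Krtap19-2 with -1.30, -1.94 and 0.70. Next were the vomeronasal receptor gene Vmn1r46 with -1.42, -2.16 and 0.73, and the fatty acid elongase gene Elovl2 with -1.27, -2.05 and 0.39. The distance was 0.031 to 0.050 for the genes near Hey1 and 0.137 to 0.320 for those near Dll1, over 3 arrays.

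The rest of the pathway was followed with a list of 77 gene symbols arranged by role, of which 59 had values on all 3 arrays. By limma 0 of the 59 passed adjustment over all genes, and 14 had an unadjusted p under 0.05, 7 positive and 7 negative. That is 23.7% beside the background of 19.6%, which is made up of 9.89% positive and 9.69% negative. The count was 5 without array 1, 3 without array 2 and 2 with array 3 turned. The share of all genes was lower in these fits too, at 8.23%, 10.3% and 5.55% in the same order. One sign on all 3 arrays was found for 34 of them, 57.6% beside 45.5% of all genes, and their median ratio was -0.07 beside -0.002 for all genes.

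Dlk1, a membrane-bound relative of the Delta ligands that lacks the domain by which they bind receptors, had the largest mean of the list. Its ratios were -2.31, -2.51 and -2.56, with a mean of -2.46 ± 0.13 (SD, n = 3) and an adjusted p of 0.149 by limma. All 3 arrays were far below 0 and close together, unlike those of Dll1. The mean was -0.76 with array 3 turned. The other atypical ligand genes were Dlk2 at -0.28 ± 0.22 and the neural contactin gene Cntn1 at 0.55 ± 0.48. Cntn1 had 2 probes, and its mean was 0.20 with the probe of smallest SD.

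Of the remaining receptor and ligand genes, 0 of 4 had an unadjusted p under 0.05 by limma, beside 19.6% of all genes. The endothelial receptor gene Notch4 had -0.56, -0.47 and -0.14 and a mean of -0.39 ± 0.22 (SD, n = 3). Jag2 had -0.54, -0.09 and -0.53, and a mean of -0.39 ± 0.26. Both were below 0 on every array. Dll3, a Delta family member that does not activate receptors, had 0.06, 0.42 and 0.36, and a mean of 0.28 ± 0.19. The endothelial ligand gene Dll4, named for its likeness to Dll1 after its values were seen, had -0.74, -1.07 and 0.35 and so also had array 3 on the other side of 0.

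Among genes of receptor glycosylation, the Fringe gene Rfng had -0.52, -0.41 and -0.54, with a mean of -0.49 ± 0.07 (SD, n = 3) and an adjusted p of 0.198 by limma. Its 3 arrays were within a narrow range, in contrast to Lfng. The third Fringe gene, Mfng, had a mean of -0.42 ± 0.23, and Pofut1, which adds the first fucose, had 0.31 ± 0.18. Among genes of ligand endocytosis, the ubiquitin ligase gene Neurl1a had -1.16, -1.03 and -0.40 and a mean of -0.86 ± 0.41, with an adjusted p of 0.183 by limma. The endocytic adaptor genes Epn1 and Epn2 had -0.27 ± 0.85 and 0.77 ± 1.03, and both SDs were larger than the means.

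Genes of the gamma-secretase that cuts the receptor lay on both sides. Aph1a had -0.38, -0.60 and -0.78, and a mean of -0.59 ± 0.20 (SD, n = 3), while its relative Aph1c had 0.62, 0.69 and 0.20, and a mean of 0.50 ± 0.27. The catalytic subunit gene Psen2 had 0.33 ± 0.21. The adjusted p by limma was 0.192 for Aph1a, 0.246 for Aph1c and 0.345 for Psen2.

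Rbpj, the DNA binding partner of the receptors, had -0.33 on array 1, -0.62 on array 2 and -1.16 on array 3. All 3 were negative, with a mean of -0.70 ± 0.42 (SD, n = 3) and an adjusted p of 0.223 by limma. With the sign of array 3 turned the mean was 0.07. The coactivator gene Snw1 had -0.28 ± 0.05 and the Rbpj relative Rbpjl had -0.33 ± 0.43. Of the 7 genes of the activating complex with 3 values, 1 had an unadjusted p under 0.05, which was Rbpj, a share of 14.3% beside the background of 19.6%.

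Of 11 corepressor genes 9 had a mean above 0 and 2 a mean below 0, the lowest at -0.99, with a median of 0.33. By limma 4 had an unadjusted p under 0.05, all positive, which is 36.4% beside 19.6% of all genes on either side and 9.89% on the positive side. Tle2, a Groucho family corepressor that Hes proteins recruit, had 0.98, 1.69 and 1.79 and a mean of 1.49 ± 0.44 (SD, n = 3), a 2.80-fold difference. Cir1, a corepressor that binds Rbpj, had 0.96, 0.83 and 1.13 and a mean of 0.97 ± 0.15. Both lay above 0 on every array, with an adjusted p of 0.157 for Tle2 and 0.155 for Cir1 by limma. The histone deacetylase gene Hdac2 had 0.43 ± 0.10 and Ctbp2 had 0.41 ± 0.12. Tle2 had 0.30 and Cir1 had 0.22 with array 3 turned. Tle5, named after its values were seen, had -4.83, 0.21 and 5.10, so arrays 1 and 3 were far apart on opposite sides.

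Among genes of receptor turnover, the ubiquitin ligase genes Nedd4 at 0.46 ± 0.11 and Fbxw7 at 0.41 ± 0.20 were positive on every array, and Itch at -0.48 ± 0.24 was negative on every array (SD, n = 3). The adjusted p by limma was 0.217 for Nedd4, 0.275 for Fbxw7 and 0.245 for Itch. Of the other target genes, Hes7, a repressor of the segmentation clock, had -0.38, -0.47 and -0.56, with a mean of -0.47 ± 0.09. The transcription factor gene Gata2 had 0.63, 0.73 and 0.34, with a mean of 0.57 ± 0.20, and Hes6 had -0.39 ± 0.32. The adjusted p by limma was 0.210 for Hes7, 0.197 for Gata2 and 0.352 for Hes6. Of these 10 target genes, 5 had one sign on all arrays, beside 45.5% of all genes.

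**Figure D4:**
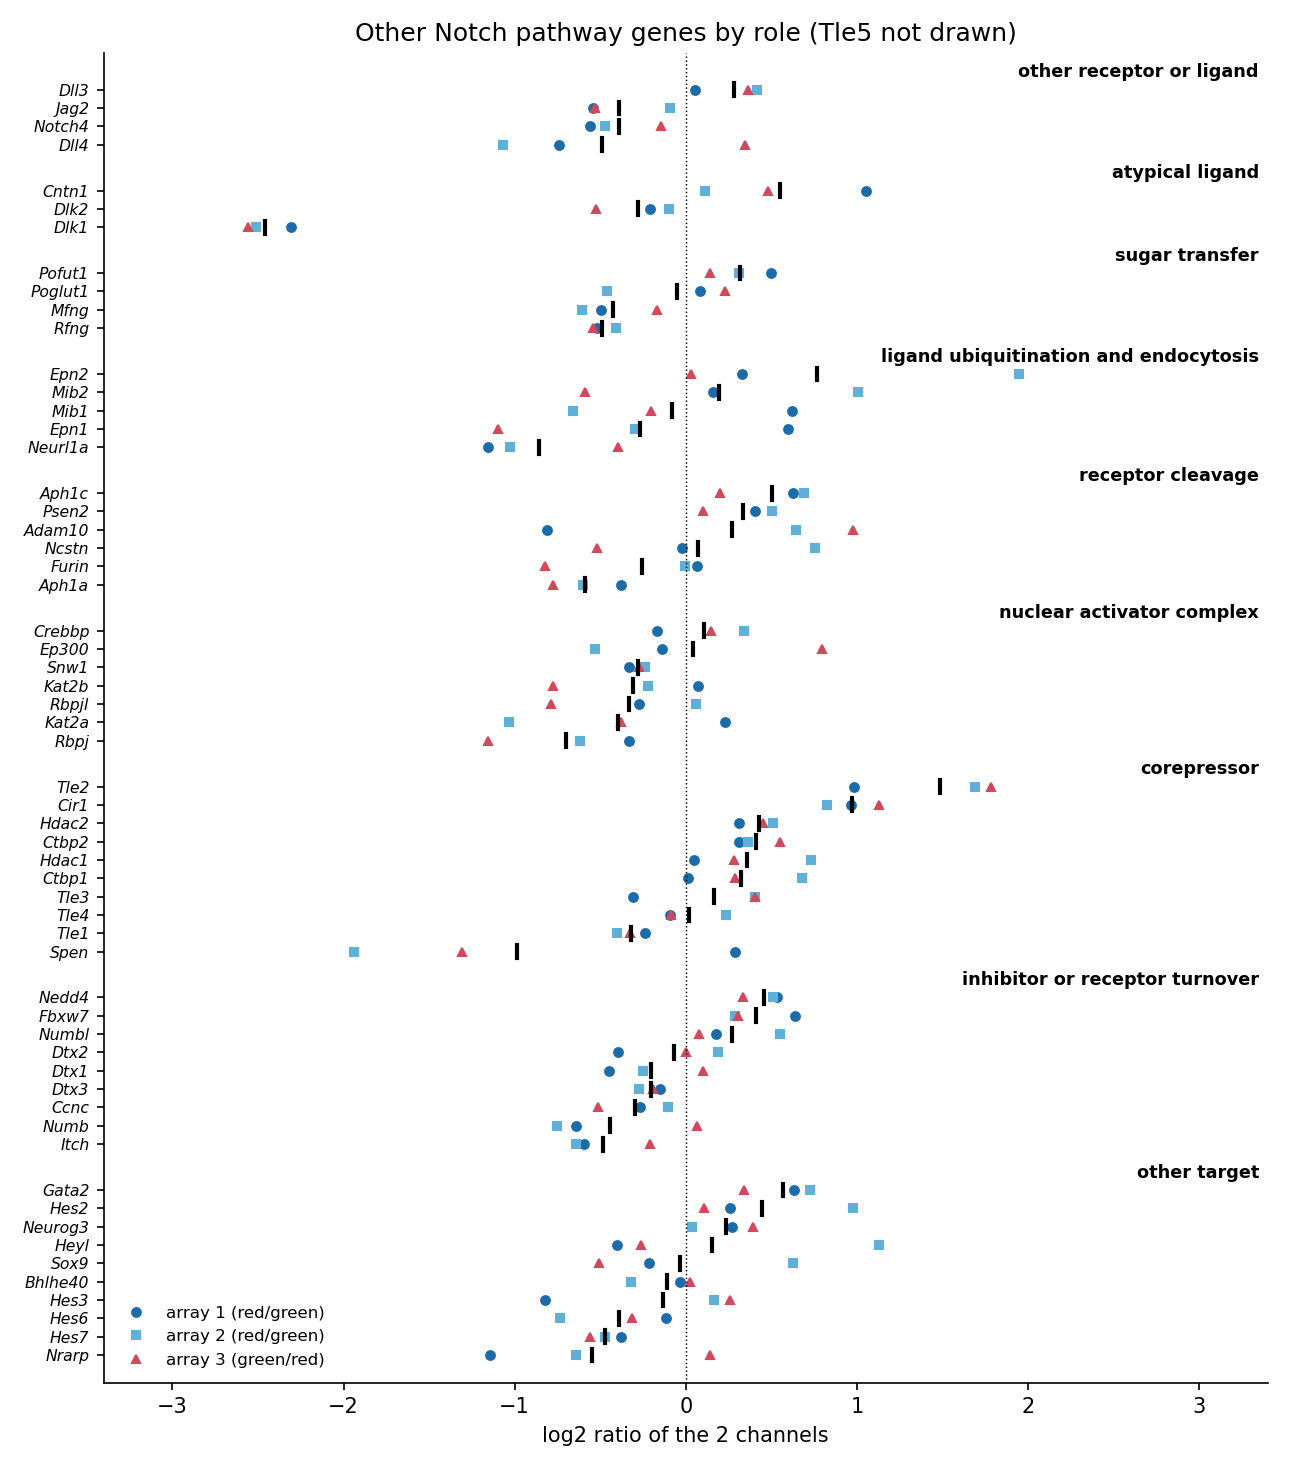
Log2 ratio (horizontal axis) of the other Notch pathway genes with 3 values (vertical axis, grouped by role), with a point for each array and a black bar at the mean. Dlk1 stands apart on the left at -2.46 and Tle2 on the right at 1.49, and most corepressor means are above 0. Tle5 is left out because its arrays ran from -4.83 to 5.10.

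Several Notch genes are also known from tissues that lie next to the early kidney, and markers of those tissues were read from the same fit. Of 11 genes of somite and muscle, where Dll1, Lfng and Hes7 act in segmentation, 9 had a negative mean, with a median of -0.66 and a range from -4.96 for Acta1 to 0.62 for Meox2. The somite factor gene Tcf15 had -1.43, -2.34 and -1.56, and was below 0 on array 3 too, where Dll1 and Lfng were above it. Of 13 endothelial genes, beside which Notch4, Dll4, Hey1 and Hey2 stand, 11 had a negative mean, with a median of -0.39. Cldn5 had -1.12 ± 0.31 and Sox17 had -1.02 ± 0.31 (SD, n = 3), on the opposite side from Hey1.

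Of 8 neural genes with 3 values, beside which Hes5 stands, 5 had a positive and 3 a negative mean, with a median of 0.13. Dcx had 1.40 ± 0.29 and Tubb3 had -0.60 ± 0.04 (SD, n = 3), so neuronal markers lay on both sides. The part of other tissues in the ratios of the Notch genes was not tested.

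Genes of the kidney lineages gave a median of 0.14 over 11 genes of the metanephric mesenchyme, with Crym at 1.91 ± 0.10 and Wt1 at 1.75 ± 0.04 (SD, n = 3), and 1.33 over 6 genes of the renal stroma, with Foxd1 at 1.56 ± 0.17 and Tcf21 at 1.47 ± 0.17. Of the mesenchyme genes 7 had a positive and 4 a negative mean. Of the 6 stromal means 5 were positive and 1 was negative, at -0.42. The ureteric bud genes had a median of 0.19 over 10, with 7 positive and 3 negative means, and Calb1 had 1.16 ± 0.10 and Etv4 had 0.81 ± 0.18. The early nephron genes, in which Notch signalling acts later, split evenly, 3 means being above 0 and 3 below it, around a median of 0.006 over 6. Wnt4 had 1.03 ± 0.06 and C1qtnf12 had 1.33 ± 0.23, while Pax8 had -0.66 ± 0.11 and Greb1 had -1.11 ± 0.34. By limma 2 of the 6 had an unadjusted p under 0.05 on each side, beside 9.89% of all genes on the positive and 9.69% on the negative side.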

How the data were processed

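Ratios of 2-colour oligonucleotide arrays were analysed for 3 arrays of 1 group. Spots had been quantified by the authors with Imagene 5.5, and print-tip lowess and a normalization across arrays had been applied in R, per the labels, with a lowess fit over 20% of the data and a control channel floor of 10. The deposited values are log2 ratios and were used as given. Without intensities the distance of a spot from background cannot be read, and 3 arrays limit the precision. No genome build is named by the labels. Probes with 1 symbol and 3 values were averaged per gene. The test was two-sided, of the mean ratio against 0, using limma 3.58.1 (lmFit, eBayes) under R 4.3.3, with Benjamini-Hochberg adjustment at 0.05. The code was tested on simulated data. Plots used Matplotlib 3.10.9 in Python 3.11.15.

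The genes and lists were chosen with earlier results of these data known. Named were the 10 Notch genes, for each role the 3 pathway genes with the smallest unadjusted p and all with an unadjusted p under 0.05, the leading pair of each marker list, and the 3 genes nearest to the Notch genes with the largest moderated statistic. Meox2, Sox2, Sox1, Pax6, Nes, Neurog2, Pax8 and Greb1 were named after their values were seen. Alternatives were the orientation of array 3, a dye term, centring, scaling, variance moderation, limits on ratios, other ways of joining probes, a fold minimum, values on at least 2 arrays, and each array left out.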

Additional observations from a re-analysis of the deposited data

How the results depend on the processing

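The count of genes past an adjusted p of 0.05 was 0 under every alternative run, for all genes, for the Notch genes and for the pathway list, which says little about stability with 3 arrays. At an unadjusted p the main counts were 2750 of all genes, 1 Notch gene (by gene and by probe) and 14 pathway genes, and 2 Notch and 34 pathway genes had one sign on all arrays. With array 3 turned there were 779 genes, 5.55% of all, and 2 pathway genes. One sign was then held by 5 Notch and 7 pathway genes, beside 25.6% of all genes, which had array 3 opposite as deposited. The Notch gene at an unadjusted p was then Dll1 in place of Hey1. The count of Notch genes, by gene and by probe, was 0 with a dye term and 0 without variance moderation, and 2 with values on at least 2 arrays, where 4 had one sign because Hes5 and Jag1 entered. The share of all genes was 21.3% with a dye term, 16.8% without variance moderation and 18% with values on at least 2 arrays. A 1.5-fold minimum left 0 Notch and 6 pathway genes, beside 13.7% of all genes. With an array left out the counts were 1156 to 2943 of all genes, 0 to 3 Notch genes and probes and 3 to 13 pathway genes, and 2 to 7 Notch and 40 to 46 pathway genes had one sign, where fewer arrays have to share it.

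With array 3 turned the mean changed sign for Hes1, at 0.0038, Notch1, at -0.046, Jag1, at -0.11, Hes5, at 0.20, Rbpj, at 0.070, Rbpjl, at 0.19, Dlk2, at 0.072, Epn1, at 0.47, Tle5, at -3.24, and Sox2, at 0.48. With an array left out the mean also changed sign for Lfng, from -1.11 to 0.15 without array 2, for Notch2, from -0.35 to 0.079 without array 2, and for Epn1, from -0.70 to 0.15 without array 3, where the first value of each is the lowest with any array left out. Pax6 ran from -0.11 without array 1 to 0.39 and Tle5 from -2.31 without array 3 to 2.66, and Pax6 had -0.23 with the probe of smallest SD. Of 67 named genes 13 changed sign under at least 1 alternative run, and the others kept it under those run for them. These genes leave out Neurog2, which was not followed under the alternatives. The cause was not tested. Each ratio pairs the tissues within an array, and no further replicate block could be fitted because all arrays form 1 group.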
